A study of Mus musculus with 20 samples.

Results

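The expression of 10 transcription factors that govern the formation and the identity of fat cells was followed in visceral adipose tissue of 20 mice. The factors were the nuclear receptors Pparg, Ppara, Ppard and Rxra, the C/EBP family members Cebpa, Cebpb and Cebpd, and Klf15, Ebf2 and Zfp423. They were chosen by gene name, with earlier results of these data known, among the 37074 gene names carried by the array. All 10 genes were measured, by 14 probes, and each of the 14 probes was well above background on all 20 arrays. A single probe read 6 of the genes, and Pparg, Ppara, Rxra and Zfp423 had 2 probes each.

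The mice were C57bl/6J males of the third generation of lineages bred on a growing diet with a small supplement of oil. The control lineage received high-oleic sunflower oil and the omega 3 lineage received fish oil rich in eicosapentaenoic acid (EPA). Ref mice (n = 6) came from the control lineage and ate a low-fat diet, HFoleic mice (n = 6) came from the control lineage and ate a high-fat, high-sucrose diet, and HFepa mice (n = 8) came from the omega 3 lineage and ate that same obesogenic diet. HFoleic vs Ref is therefore a comparison of diets within the control lineage, HFepa vs HFoleic a comparison of lineages under 1 diet, and HFepa vs Ref differs in both. The arrays were Agilent mouse gene expression arrays of 1 colour, hybridized with RNA of the epididymal fat of 1 mouse each, and the tissue was taken during the fasting period. HFepa and HFoleic share the Ref arrays as their reference, and the HFoleic arrays serve in both remaining comparisons, so the 3 comparisons are not independent of each other.

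During adipogenesis, C/EBPβ and C/EBPδ are induced early and switch on PPARγ and C/EBPα, which then maintain each other and the genes of the mature fat cell. PPARγ, PPARα and PPARδ bind DNA as dimers with a retinoid X receptor such as RXRα and are activated by fatty acids and their derivatives, among them polyunsaturated ones. KLF15 and the early B cell factors act with this core, and ZFP423 and EBF2 mark committed precursors and are known for their opposite roles in white and beige fat identity. Several of these factors, such as PPARδ, RXRα and C/EBPβ, are made by macrophages as well.

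The calls described below rest on single probes, so the first 30 bases of those probes, and of both probes of Rxra, are shown as they are written in the deposited files, 5′ to 3′. Each probe is 60 bases long, and the positions of whole probes are those of the files on build mm9. No exon annotation of that build was used here.
Cebpd, chr16:15888459-15888518, plus strand: gacatttccgacagacttttgtagataaga
Ebf2, chr14:68048145-68048204, plus strand: ttggttgtgtttcttggactcttaagactc
Ppard, chr17:28438298-28438357, plus strand: agtctccaaatctgaaatgtatatttttgc
Rxra, brighter probe, chr2:27618345-27618404, plus strand: tactcactgggacattgtggtgcagacgcc
Rxra, dimmer probe, chr2:27615316-27615375, plus strand: gtccttatgggcccaaaagatgcatcacca
Both Rxra probes are assigned to the same transcript in the files.

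The 250 bases upstream of the annotated start are shown for Ppard, the called factor with a promoter in the reference table, and for Pparg and Cebpa, the core of the mature fat cell. They come from RefSeq on GRCm38.p6, and capitals mark GC boxes, the letters GGGCGG on either strand, which factors of the SP and KLF families bind.
Ppard, chr17:28232504-28232753, plus strand: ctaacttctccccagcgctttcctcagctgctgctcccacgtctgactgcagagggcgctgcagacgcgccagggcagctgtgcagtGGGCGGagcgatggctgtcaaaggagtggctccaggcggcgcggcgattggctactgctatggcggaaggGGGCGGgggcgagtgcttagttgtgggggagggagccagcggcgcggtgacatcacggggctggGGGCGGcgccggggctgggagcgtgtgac
Cebpa, chr7:35119043-35119292, plus strand: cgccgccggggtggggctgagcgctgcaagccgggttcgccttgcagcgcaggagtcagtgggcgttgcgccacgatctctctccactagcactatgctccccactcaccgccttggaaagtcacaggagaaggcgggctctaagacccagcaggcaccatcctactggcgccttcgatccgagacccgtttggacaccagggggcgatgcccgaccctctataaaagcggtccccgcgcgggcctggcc
Pparg, most downstream of 3 annotated starts, chr6:115421816-115422065, plus strand: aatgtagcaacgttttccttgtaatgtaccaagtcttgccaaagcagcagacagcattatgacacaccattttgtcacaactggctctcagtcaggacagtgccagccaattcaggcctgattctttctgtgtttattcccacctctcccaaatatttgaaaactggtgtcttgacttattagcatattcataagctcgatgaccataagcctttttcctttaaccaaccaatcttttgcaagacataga
The table held 12 such windows for 8 of the 10 factors, with none for Cebpd and Ebf2. A GC box lay in 9 of the 12 windows, against 32.7% of the 32851 promoter windows of the table. The Ppard window held 3 of them, and the printed windows of Cebpa and Pparg held 0. The repeat that PPAR and RXR dimers bind, searched on both strands as AGGTCA repeated with 1 base between the copies, was in 0 of the 12 windows and in 0.0335% of all windows. The C/EBP palindrome TTGCGCAA was in 0 of the 12 windows and in 0.164% of all windows. The EBF palindrome CCCNNGGG was in 3 of the 12 windows, those of Cebpb, Ppara and 1 start of Zfp423, and in 11.8% of all windows. These matches describe letters and were not tested for binding.

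Fat cell markers were bright on every array, as the label of the tissue implies: the mean log2 intensity of 10 adipocyte markers lay between 15.83 and 16.58. Marker intensities of several cell types differed between the groups. The mean log2 intensity of 17 macrophage markers lay between 10.81 and 11.38 in Ref mice, between 11.94 and 13.15 in HFoleic mice and between 11.01 and 13.21 in HFepa mice, and 13 of the 17 rose and 1 fell in HFoleic vs Ref. In that comparison 5 of 10 adipocyte markers fell and 6 of 12 markers of adipose progenitors and fibroblasts rose, while 0 of 7 T cell, 0 of 5 B cell, 0 of 7 endothelial and 0 of 9 mesothelial markers were called. Of the remaining lists, 0 of 5 epididymis, 1 of 4 testis and 1 of 7 liver markers were called, the last 2 lower. Over all genes, 15.2% were called higher and 16.6% lower in this comparison. HFepa mice 1 and 6 stood apart from the other 6 HFepa mice, with macrophage levels of 13.21 and 12.80 against 11.01 to 11.84. In whole tissue, fewer cells of a type and less RNA per cell cannot be told apart, and the part of the marker shifts in the values below was not tested.

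Each gene was counted by its brighter or only probe. In HFoleic vs Ref, Cebpd, Ebf2 and Ppard fell and the other 7 factors were not called on that probe. The calls are those of limma with Benjamini-Hochberg adjustment over all probes, at an adjusted p under 0.05. That count is 3 of 10 factors, and 31.8% of the 25619 genes tested were called in the same comparison, a share near that of the factors. All 3 lay in the lower direction, in which 16.6% of all genes were called. The dimmer probe of Rxra, which is not in that count, was called lower as well (log2 fold change -0.70, adjusted p = 0.00243 by limma). The median log2 fold change was -0.22 over the 10 factors, beside -0.04 over all genes. At an unadjusted p under 0.05, 5 of the 10 factors and 42.2% of all genes passed. In HFepa vs Ref, 0 of the 10 factors were called by limma, beside 2.46% of all genes (1.04% higher and 1.42% lower), and 2 factors and 21.5% of all genes passed at an unadjusted p under 0.05. In HFepa vs HFoleic, 0 of the 10 factors and 0% of all genes were called by limma, and 2 factors and 20.8% of all genes passed at an unadjusted p under 0.05. With array weights in the limma fit, 5 factors were called in HFoleic vs Ref, with Cebpa and Zfp423 added, beside 42% of all genes. In HFepa vs HFoleic 2 were called in that fit, Cebpd and Ebf2, beside 12% of all genes. No factor had Ref and HFepa mice that did not overlap, a pattern of 1.04% of all genes, 0.671% in the lower direction. Nor did any in HFepa vs HFoleic, where 0.355% of all genes had it, 0.203% in the lower direction. The HFepa mean lay between the Ref and HFoleic means for 7 of the 10 factors. The share of all genes with that order was not computed, so the count is not read as a trait of the factors.

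**Figure D1:**
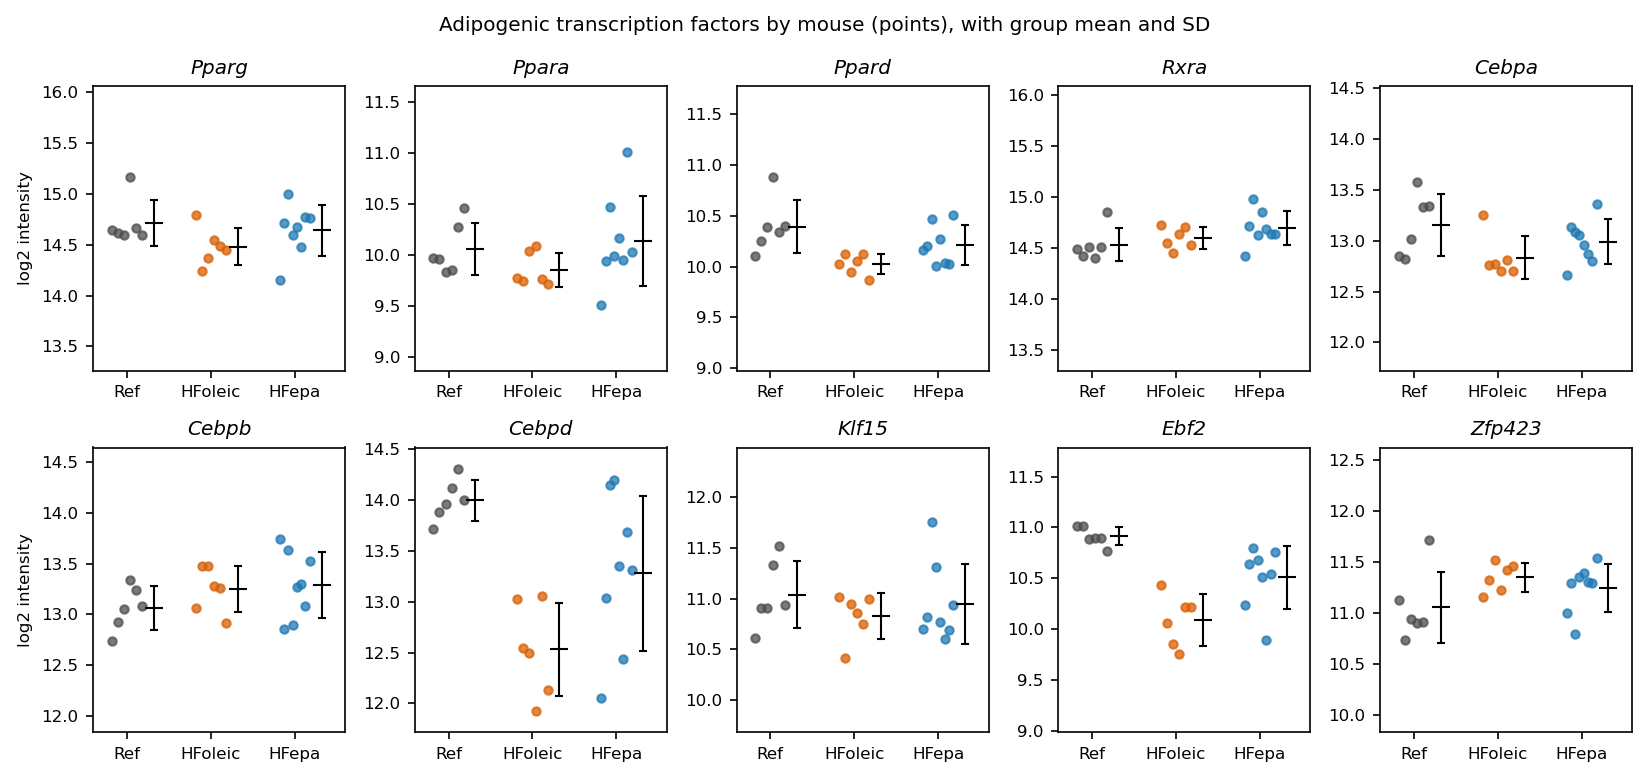
Log2 intensity of the brighter or only probe of each of the 10 factors (vertical axis) in every mouse of the Ref, HFoleic and HFepa groups (points), with the group mean and SD beside the points. Every panel spans the same number of log2 units, and Cebpd and Ebf2 are the panels in which the 6 Ref and 6 HFoleic mice do not overlap.

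Among the PPAR genes, only Ppard, which encodes a receptor that promotes fatty acid oxidation in many tissues, was called. Its log2 intensity in the Ref mice had a lowest value of 10.10, a median of 10.37 and a highest value of 10.88. The HFoleic mice had 9.87, 10.04 and 10.12, and the HFepa mice had 10.01, 10.18 and 10.51. The HFoleic mice were tightly grouped at the lower end, with 4 of 6 below the lowest Ref mouse, and 5 of 8 HFepa mice lay above the highest HFoleic mouse. Ppard was lower in HFoleic than in Ref mice by a log2 fold change of -0.37 (SE 0.11, adjusted p = 0.0159 by limma), a change of -22.6% in intensity. With the replicate number as a block the adjusted p was 0.0532. The difference within each of the 3 slides was -0.19, -0.52 and -0.33, the second slide holding a single HFoleic mouse. The change in HFepa vs Ref was -0.19 with a 95% interval from -0.40 to 0.03, and that in HFepa vs HFoleic was 0.18 with an interval from -0.03 to 0.40. Neither was called, and the interval of HFepa vs Ref includes the -0.37 of HFoleic vs Ref.

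Pparg, the factor without which fat cells do not form, was not called in any comparison. Its brighter probe had a log2 intensity of 14.72 ± 0.22 (SD, n = 6) in Ref mice, with a lowest value of 14.60, a median of 14.63 and a highest of 15.17. HFoleic mice had 14.48 ± 0.18 (SD, n = 6), from 14.24 to 14.79 around a median of 14.47. HFepa mice had 14.64 ± 0.25 (SD, n = 8), from 14.15 to 15.00 around a median of 14.69. The groups overlapped, although 5 of 6 HFoleic mice lay below the lowest Ref mouse. The HFoleic vs Ref log2 fold change was -0.23 (95% interval -0.50 to 0.03, adjusted p = 0.168). HFepa mice differed from Ref by -0.07 (-0.32 to 0.17, adjusted p = 0.774) and from HFoleic by 0.16 (-0.08 to 0.41, adjusted p = 0.458). The widest of these intervals, that of HFoleic vs Ref, reaches -0.50, so a fall of Pparg of up to that size was not excluded. The dimmer Pparg probe had means of 6.46 ± 0.46, 6.20 ± 0.17 and 6.39 ± 0.32 (SD) in the Ref, HFoleic and HFepa groups and was not called either.

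Ppara, the receptor best known for driving fatty acid oxidation in liver and brown fat, ranged in log2 intensity from 9.83 to 10.46 in Ref mice, from 9.71 to 10.09 in HFoleic mice and from 9.51 to 11.01 in HFepa mice, with medians of 9.96, 9.77 and 10.01. The HFepa mice spread the most, with an SD of 0.44 against 0.25 in Ref and 0.17 in HFoleic mice. Relative to Ref mice, the log2 difference of Ppara was -0.21 in HFoleic mice (adjusted p = 0.417) and 0.08 in HFepa mice (adjusted p = 0.837), and HFepa vs HFoleic gave 0.28 (adjusted p = 0.349), none of them called. Both Ppara probes gave the same directions in these fits, and without HFepa mouse 7 the change in HFepa vs Ref was -0.05 on the brighter probe and -0.06 on the dimmer one.

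Rxra encodes the partner with which all 3 PPARs bind DNA, and its 2 probes did not move alike. On the brighter probe the log2 intensity ran from 14.40 to 14.85 in Ref mice (median 14.50), from 14.45 to 14.72 in HFoleic mice (14.59) and from 14.42 to 14.98 in HFepa mice (14.66). These ranges lay over each other, and no comparison was called on that probe, the log2 fold changes being 0.07 for HFoleic vs Ref (adjusted p = 0.587), 0.17 for HFepa vs Ref (adjusted p = 0.254) and, against HFoleic, 0.10 (adjusted p = 0.535). On the dimmer probe the Ref mice ran from 7.96 to 8.46 (median 8.08), the HFoleic mice from 7.15 to 7.89 (7.33) and the HFepa mice from 7.17 to 8.17 (7.86). All 6 HFoleic mice were below all 6 Ref mice on that probe, a pattern shown by 14% of all genes in either direction, and the log2 fold change was -0.70 (SE 0.15, adjusted p = 0.00243). The dimmer probe was lower in HFoleic mice within each of the 3 slides, with differences of -0.46, -1.08 and -0.76. The second slide held a single HFoleic mouse. The changes of the dimmer probe in HFepa vs Ref, -0.37, and in HFepa vs HFoleic, 0.33, were not called (adjusted p = 0.152 and 0.205). With its probes averaged, the HFoleic vs Ref value of Rxra was -0.32 on the log2 scale (adjusted p = 0.0301), opposite in sign to the brighter probe alone, so no direction can be given for the gene.

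**Figure D2:**
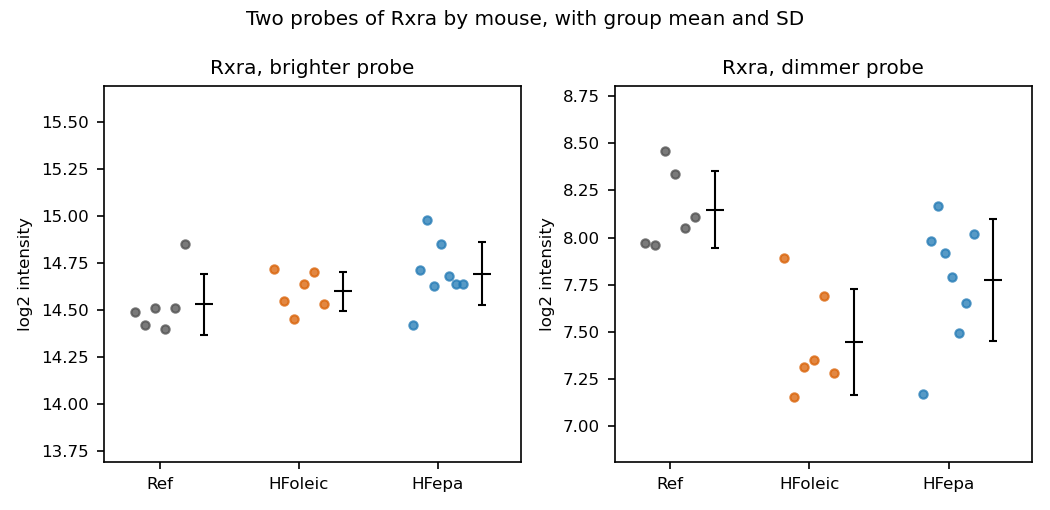
Log2 intensity of the brighter (left) and dimmer (right) probe of Rxra (vertical axes, each spanning the same number of log2 units) in every mouse (points) of the 3 groups, with the group mean and SD. The ranges overlap on the brighter probe, while on the dimmer probe the HFoleic mice, at 7.15 to 7.89, lie below the Ref mice, at 7.96 to 8.46.

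Cebpd, an early inducer of the fat cell program that also responds to glucocorticoids and inflammatory signals, changed the most of the 10 factors. Its log2 intensity in the 6 Ref mice was lowest at 13.71, with a median of 13.98 and a highest value of 14.30. In the 6 HFoleic mice the lowest value was 11.93, the median 12.52 and the highest 13.06. The groups did not overlap, and the log2 fold change was -1.46 (SE 0.30, 95% interval -2.09 to -0.84, adjusted p = 0.00165), so that the HFoleic level was 0.363 times that of Ref. The difference was -1.43, -1.52 and -1.35 within the 3 slides, the second of which held a single HFoleic mouse. Without any 1 of the 20 arrays the adjusted p lay between 0.000418 and 0.00539.

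The 8 HFepa mice covered nearly the whole span of both other groups in Cebpd, from 12.05 to 14.20 around a median of 13.33, with an SD of 0.76 against 0.20 in Ref and 0.46 in HFoleic mice. Of these mice, 6 lay below the lowest Ref mouse and 5 above the highest HFoleic mouse. The log2 fold change was -0.72 in HFepa vs Ref (95% interval -1.31 to -0.13, adjusted p = 0.156) and 0.74 in HFepa vs HFoleic (0.16 to 1.33, adjusted p = 0.156), and neither was called. The lowest 2 values belonged to HFepa mice 1 and 6, at 12.05 and 12.44, the mice with the highest macrophage levels of their group. Without HFepa mouse 1 the change in HFepa vs HFoleic was 0.92 with an adjusted p of 0.034, which passed the threshold, as did 7.69% of all genes in that fit.

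Cebpb, the partner of Cebpd in early adipogenesis and a prominent factor of macrophages, did not follow it. Its log2 intensity ran from 12.74 to 13.34 in Ref mice (median 13.07), from 12.92 to 13.48 in HFoleic mice (13.27) and from 12.86 to 13.74 in HFepa mice (13.29). The log2 fold changes were 0.18 in HFoleic vs Ref (95% interval -0.13 to 0.49, adjusted p = 0.382), 0.23 in HFepa vs Ref (-0.06 to 0.52, adjusted p = 0.374) and 0.04 in HFepa vs HFoleic (-0.25 to 0.33, adjusted p = 0.899). The highest value of the HFepa group belonged to mouse 1.

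Cebpa, which sustains insulin sensitivity and the mature fat cell program together with Pparg, was lower in HFoleic mice without reaching the threshold. The Ref mice had 13.16 ± 0.31 (SD, n = 6), from 12.82 to 13.58, the HFoleic mice 12.83 ± 0.21 (SD, n = 6), from 12.70 to 13.25, and the HFepa mice 12.99 ± 0.22 (SD, n = 8), from 12.66 to 13.36. In HFoleic vs Ref 5 of 6 HFoleic mice lay below the lowest Ref mouse, and the log2 fold change was -0.32 (SE 0.14, 95% interval -0.61 to -0.04, adjusted p = 0.0774). HFoleic mouse 1, at 13.25, lay apart from the other 5, and without it the change was -0.41 with an adjusted p of 0.0224. It was called as well without Ref mouse 2 (adjusted p = 0.044) or Ref mouse 3 (adjusted p = 0.0391). Those fits, in the order given, called 34.6%, 29.9% and 28.8% of all genes. Within the 3 slides the Cebpa difference was 0.05, -0.70 and -0.38, the second slide holding a single HFoleic mouse. The changes in HFepa vs Ref, -0.17, and in HFepa vs HFoleic, 0.16, were not called (adjusted p = 0.490 and 0.513).

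Klf15, which acts with Pparg and Cebpa late in differentiation and is induced by glucocorticoids and fasting, had a log2 intensity of 11.04 ± 0.33 in Ref mice, 10.83 ± 0.23 in HFoleic mice and 10.95 ± 0.39 in HFepa mice (SD, n = 6, 6 and 8). The ranges, 10.61 to 11.52, 10.42 to 11.02 and 10.60 to 11.75, overlapped. The log2 fold change from Ref was -0.20 in HFoleic mice (95% interval -0.58 to 0.17, adjusted p = 0.424) and -0.09 in HFepa mice (-0.44 to 0.26, adjusted p = 0.809). HFepa differed from HFoleic mice by 0.11 (-0.24 to 0.47, adjusted p = 0.754), and none of these was called.

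Ebf2, a factor of committed fat cell precursors that favours the beige and brown program, had the narrowest Ref group and a clear fall in HFoleic mice. Its log2 intensity in the 6 Ref mice ran only from 10.77 to 11.01 around a median of 10.90. The 6 HFoleic mice ran from 9.76 to 10.43 around 10.14, and did not overlap with Ref. The log2 fold change was -0.82 (SE 0.13, 95% interval -1.10 to -0.54, adjusted p = 0.000483), a change of -43.4%. Within the 3 slides it was -0.87, -0.77 and -0.86, the second slide holding a single HFoleic mouse. Read by the brighter or only probe, Cebpd and Ebf2 were the 2 of 10 factors whose Ref and HFoleic mice did not overlap. That pattern was shown in the lower direction by 7.07% of all genes.

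The 8 HFepa mice fell between the other groups in Ebf2, from 9.89 to 10.80 around a median of 10.59. Of these, 7 lay below the lowest Ref mouse and 6 above the highest HFoleic mouse, and the exceptions at the low end were mice 1 and 6, at 10.24 and 9.89. The log2 fold change was -0.41 in HFepa vs Ref (95% interval -0.67 to -0.14, adjusted p = 0.0837) and 0.42 in HFepa vs HFoleic (0.15 to 0.68, adjusted p = 0.126), neither called. Leaving out 1 mouse brought a call in HFepa vs Ref without HFepa mouse 3 (-0.45, adjusted p = 0.0429), where 7.01% of all genes were called. In HFepa vs HFoleic it did so without HFepa mouse 1 (0.45, adjusted p = 0.0411) or without HFoleic mouse 1 (0.48, adjusted p = 0.0434), where 7.69% and 4.36% of all genes were called. The HFepa vs HFoleic difference was 0.37, 0.34 and 0.63 within the 3 slides, the second of which held a single HFoleic mouse.

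Zfp423, a zinc finger factor that commits precursors to the fat lineage and restrains the beige program in white fat, stood higher in HFoleic mice without passing the threshold. Its log2 intensity ran from 10.73 to 11.72 in Ref mice (median 10.92), from 11.16 to 11.52 in HFoleic mice (11.37) and from 10.79 to 11.54 in HFepa mice (11.29). A single Ref mouse, mouse 7, was the highest of all. The log2 fold change in HFoleic vs Ref was 0.30 (95% interval 0.00 to 0.59, adjusted p = 0.118), and without Ref mouse 7 it was 0.43 (adjusted p = 0.00767). The dimmer Zfp423 probe gave 0.35 (adjusted p = 0.125) with all mice and 0.51 (adjusted p = 0.00511) without that mouse. The changes in HFepa vs Ref, 0.19, and in HFepa vs HFoleic, -0.11, were not called (adjusted p = 0.446 and 0.686). On the dimmer probe HFepa vs Ref reached an adjusted p of 0.0394 without Ref mouse 7. Without that mouse 32.5% of all genes were called in HFoleic vs Ref and 4.72% in HFepa vs Ref.

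**Figure D3:**
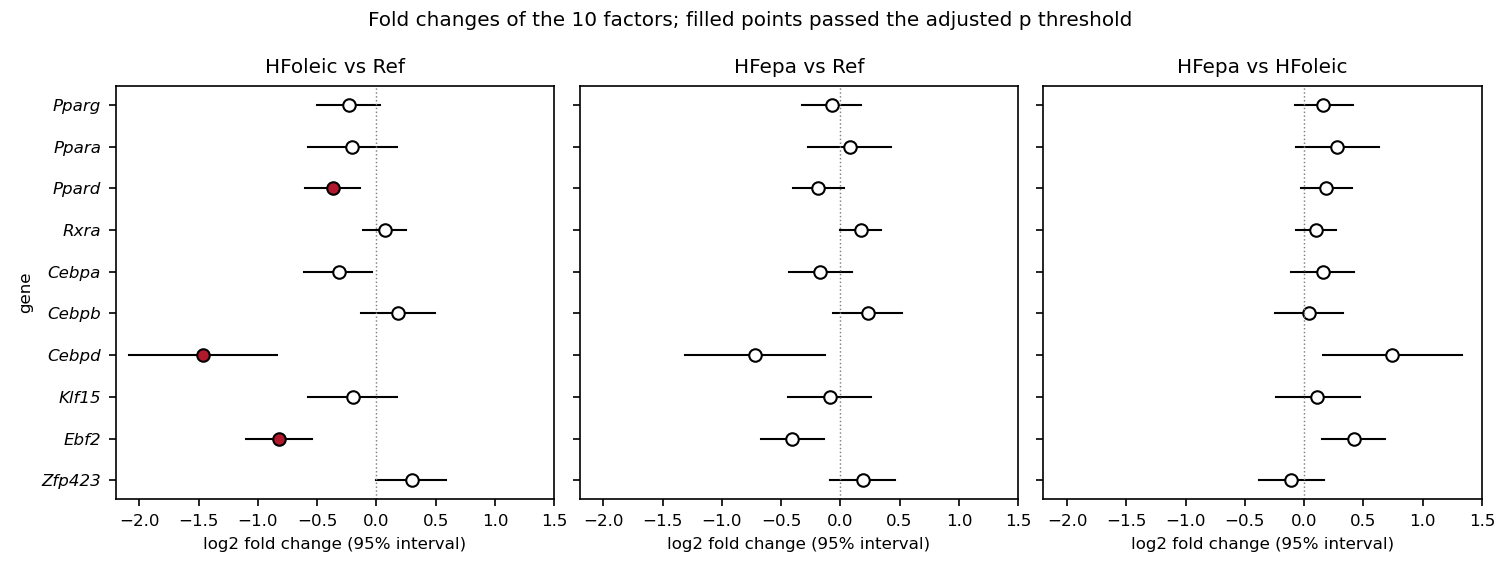
Log2 fold change (horizontal axis) of the 10 factors on their brighter or only probe in the 3 comparisons, with 95% intervals of the limma fit (lines) and filled points where the adjusted p was under 0.05. The 3 filled points are Ppard, Cebpd and Ebf2 in HFoleic vs Ref, at -0.37, -1.46 and -0.82.

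Within the HFepa group, mice 1 and 6 held the lowest 2 of 8 values for 3 of the 10 factors. These were Pparg, at 14.15 and 14.48 against 14.60 to 15.00 in the other 6 mice, Cebpd and Ebf2. For Ebf2 the other 6 mice lay between 10.51 and 10.80, and for Cebpd between 13.04 and 14.20. In the remaining factors mice 1 and 6 were not the lowest 2, and mouse 1 had the highest Cebpb value of the group, 13.74. These 2 mice were singled out by their macrophage level, and the share of all genes in which they were lowest was not computed. The same mice had macrophage marker levels of 13.21 and 12.80, beside 11.94 to 13.15 in the HFoleic group, and adipocyte marker levels of 15.83 and 16.06, the lowest 2 of the HFepa group. Since the HFepa mice fall into separate sets in the macrophage level, no correlation over them is given, and the part of that level in the values of the factors was not tested.

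**Figure D4:**
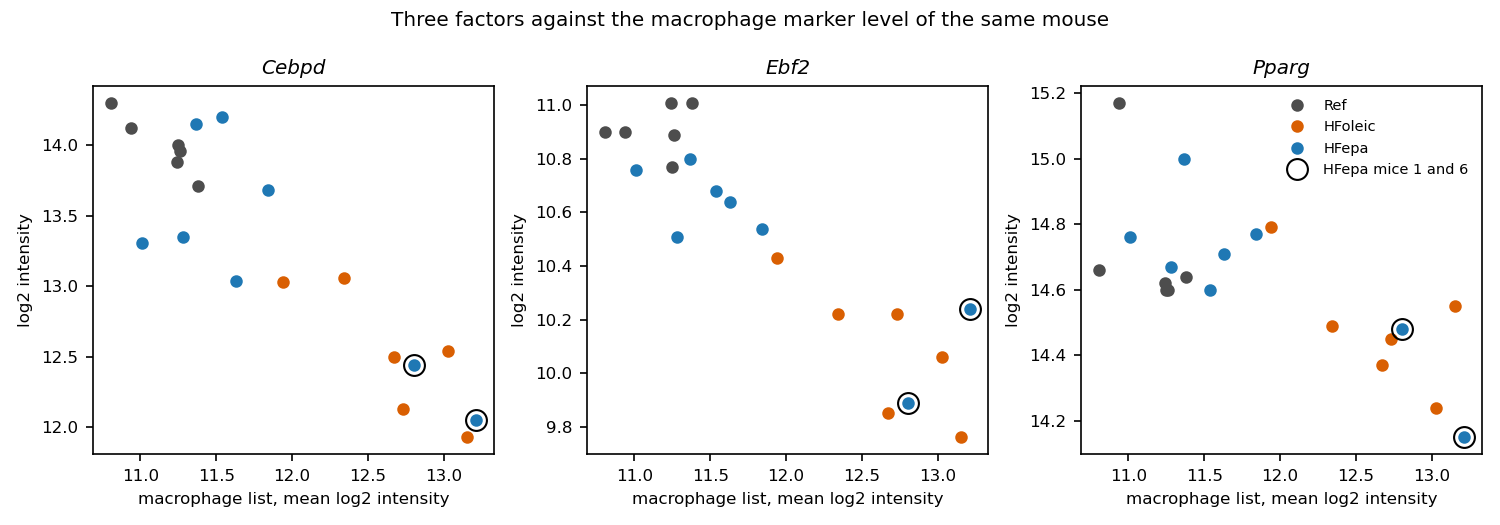
Log2 intensity of Cebpd, Ebf2 and Pparg (vertical axes) against the mean log2 intensity of 17 macrophage markers (horizontal axis) in the 20 mice, coloured by group, with HFepa mice 1 and 6 ringed. The ringed mice lie at macrophage levels of 13.21 and 12.80, to the right of the other 6 HFepa mice, and hold the lowest values of the HFepa group in all 3 panels. Only the factors for which both of those mice held the lowest values are plotted.

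The genes on which these factors are known to act, and the factors that work with or against them, were described from 6 lists that held 139 tested genes other than the 10 factors. In HFoleic vs Ref 61 of the 139 were called, 21 higher and 40 lower, which is 43.9% beside 31.8% of all genes, with a median log2 fold change of -0.15 beside -0.04. In HFepa vs Ref 2 of the 139 were called, which is 1.44% beside 2.46% of all genes. In HFepa vs HFoleic limma called 0 of the 139, with a median of 0.08 beside 0.01 over all genes, and 11 were called with the slide as a block, beside 3.14% of all genes in that fit.

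Of 28 fat cell genes that PPARγ and C/EBPα drive, 15 were called in HFoleic vs Ref, 5 higher and 10 lower. That is 53.6%, beside 31.8% of all genes, of which 15.2% were higher and 16.6% lower. Lipe, which encodes hormone-sensitive lipase, fell from a mean log2 intensity of 14.15 ± 0.18 to 12.97 ± 0.46 (SD, n = 6 and 6), a log2 fold change of -1.19 (adjusted p = 0.000518). Lep, the gene of leptin, rose by 1.13 (adjusted p = 0.000743), and Dgat2, an enzyme of the last step of triglyceride synthesis, rose by 1.51 (adjusted p = 0.000718). Fabp5, a fatty acid carrier of fat cells and macrophages, rose by 1.26 (adjusted p = 0.000427). It was also the only gene of this list called in HFepa vs Ref, at 0.75 (adjusted p = 0.0386). The list thus held members that rose and members that fell. Pparg and Cebpa themselves were not called, with 95% intervals that reached -0.50 and -0.61, and their difference from the list was not tested.

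Of 26 tested fatty acid oxidation genes that PPARα and PPARδ drive, 9 were called in HFoleic vs Ref, 5 higher and 4 lower. The share, 34.6%, was near the 31.8% of all genes, and the median log2 fold change was 0.01. Acot2, a mitochondrial acyl-CoA thioesterase, fell by 0.99 on the log2 scale (adjusted p = 0.000362) and was lower in HFepa than in Ref mice by 0.60, a log2 fold change of -0.60 (adjusted p = 0.0311). Vnn1, a pantetheinase, fell by 1.34 on the log2 scale in HFoleic vs Ref (adjusted p = 0.00761). Plin2, a lipid droplet coat protein that macrophages also make, rose by 0.92 (adjusted p = 0.0105), and Angptl4, a secreted inhibitor of lipoprotein lipase, rose by 0.21 (adjusted p = 0.01).

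Of 20 partners and coregulators of the nuclear receptors, 8 were called in HFoleic vs Ref, 3 higher and 5 lower (40%, beside 31.8% of all genes). The RXR paralogs differed: Rxrg rose by 0.78 (adjusted p = 0.000795), from a mean log2 intensity of 10.77 ± 0.32 to 11.55 ± 0.21 (SD, n = 6 and 6), while Rxrb had a log2 fold change of -0.16 and was not called (adjusted p = 0.0859). The coactivator genes Ppargc1a and Ncoa1 fell, with log2 fold changes of -0.71 (adjusted p = 0.0212) and -0.45 (adjusted p = 0.00176). The corepressor gene Ncor1 fell as well, with -0.45 (adjusted p = 0.00295), as did Sirt1, a deacetylase that restrains Pparg, with -0.40 (adjusted p = 0.00163). Cdk5, the kinase that phosphorylates PPARγ in obese fat, rose by 0.42 (adjusted p = 0.00607), and Prdm16, a coregulator of the beige and brown program, rose by 0.37 (adjusted p = 0.0152). None of the 20 was called in HFepa vs Ref by limma, where 7 passed at an unadjusted p under 0.05 beside 21.5% of all genes, and Prdm16 was at 0.39 (adjusted p = 0.0507).

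Of 18 further C/EBP, KLF, EBF and zinc finger factors, 9 were called in HFoleic vs Ref, 2 higher and 7 lower (50%, beside 31.8% of all genes). Ebf1, the paralog of Ebf2 with a broad role in fat cells, fell from 12.55 ± 0.18 to 11.91 ± 0.22 (SD, n = 6 and 6), a log2 fold change of -0.64 (adjusted p = 0.00158). The HFepa mice had 12.37 ± 0.28 in Ebf1 (SD, n = 8), and their difference from HFoleic, 0.47, was not called (adjusted p = 0.118). Klf9, a glucocorticoid-induced KLF that acts on the Pparg gene, fell with a log2 fold change of -0.71 (adjusted p = 0.00059). The zinc finger genes Zfp467 and Zfp462 fell with -0.48 (adjusted p = 0.00167) and -0.86 (adjusted p = 0.00197). Among the C/EBP paralogs Cebpe, a factor of myeloid cells, rose by 1.02 (adjusted p = 0.012), and Cebpg was at -0.14 and not called (adjusted p = 0.221).

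Of 19 other factors known to promote fat cell formation, 11 were called in HFoleic vs Ref, 4 higher and 7 lower (57.9%, beside 31.8% of all genes). Egr2, an early inducer of Cebpb that activated macrophages also express, rose by 3.23 (adjusted p = 0.00121), from 7.97 ± 0.49 to 11.20 ± 0.78 (SD, n = 6 and 6), and the HFepa mice ran from 7.69 to 12.42 around a median of 8.71. Esrra, an orphan receptor of mitochondrial genes, rose by 0.52 (adjusted p = 0.00123). Gata6 and Smad4 fell, with log2 fold changes of -1.04 (adjusted p = 0.0019) and -0.29 (adjusted p = 0.00315).

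Of 29 tested factors known to restrain fat cell formation, 10 were called in HFoleic vs Ref, 3 higher and 7 lower. Their share, 34.5%, was near the 31.8% of all genes. Tcf7l2, an effector of Wnt signalling, fell from 11.66 ± 0.10 to 10.97 ± 0.17 (SD, n = 6 and 6), a log2 fold change of -0.69 (adjusted p = 0.000341). It lay at 11.39 ± 0.22 in HFepa mice (SD, n = 8), and its difference from HFoleic, 0.43, had an adjusted p of 0.118. Ctnnb1, the gene of β-catenin, rose by 0.25 (adjusted p = 0.00216). Irf4, a fasting-induced factor of fat cells that immune cells also make, fell with -2.04 (adjusted p = 0.00153), and Trib3 fell with -0.88 (adjusted p = 0.00358).

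**Figure D5:**
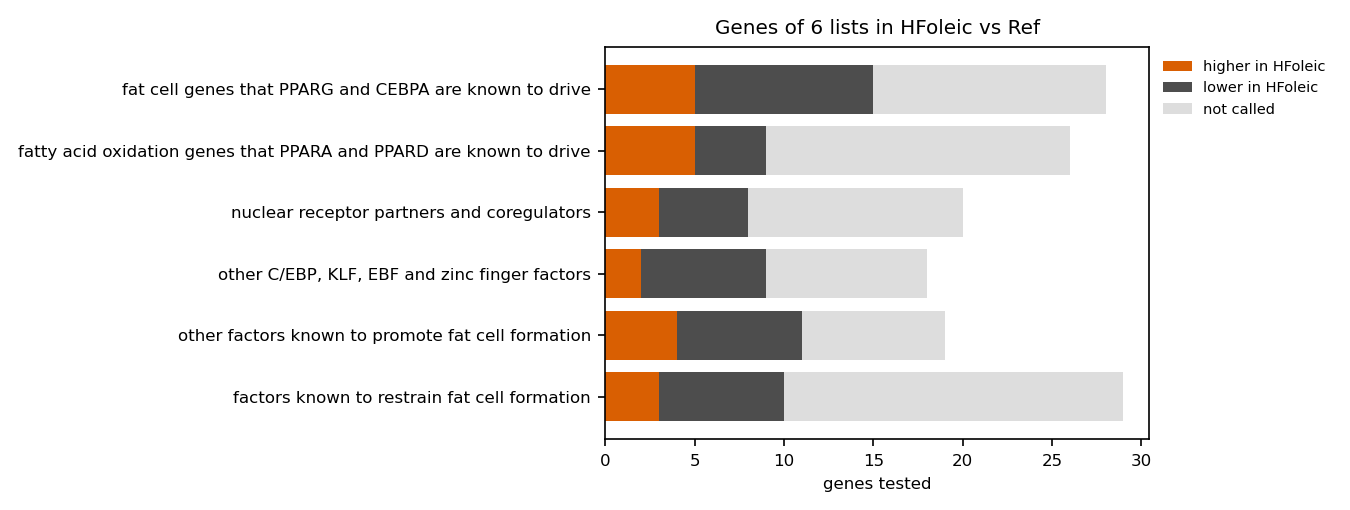
Number of genes tested (horizontal axis) in each of 6 lists of targets, partners and other factors of fat cell formation, split into genes called higher in HFoleic than in Ref mice, called lower and not called by limma. The longest lower segment is that of the fat cell genes driven by PPARγ and C/EBPα, with 10 of 28 genes. Over all genes, 16.6% were called lower.

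The genes whose levels over the 20 mice were most like those of the core pair were named by Pearson's r, as a description. For Pparg they were 4632404H12Rik (r = 0.904, Spearman's rho = 0.833), Shank3 (r = 0.898, rho = 0.859) and Ankef1 (r = 0.887, rho = 0.860). For Cebpa they were Hspa9, a mitochondrial chaperone (r = 0.908, rho = 0.904), Plin1, the coat protein of fat cell lipid droplets (r = 0.907, rho = 0.935), and Uqcr10, a subunit of respiratory complex III (r = 0.904, rho = 0.892). Over the deviations of the mice from their group means, r ranged between 0.866 and 0.895 for the former and between 0.879 and 0.882 for the latter. The points are arrays of 3 groups that share their normalization, and each of these genes was picked for its high r.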

How the data were processed

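RNA of visceral adipose tissue of 20 mice was hybridized to arrays of 1 colour. The authors extracted spot intensities with Agilent Feature Extraction 10.10.1.1, and the deposited median intensity is linear, without normalization or background subtraction. The authors' deposited log2 table, filtered and quantile normalized, served as an alternative. The number of arrays limits the precision.

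Control spots were left out and spots marked as non-uniform or population outliers were set missing. The log2 median intensities were quantile normalized in R 4.3.3 with limma 3.58.1, and 39392 probes well above background on at least 6 arrays were tested. A gene was read by its probe with the highest mean. A mean per group was fitted to all 20 arrays (lmFit, eBayes), with p-values adjusted by Benjamini-Hochberg across the tested probes and a threshold of 0.05. The fit was tested on simulated data. Figures were drawn with matplotlib 3.10.9.

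The genes named were all 10 factors, in each list the 4 genes with the smallest p in HFoleic vs Ref and the 1 with the smallest p in each other comparison, paralogs and partners of the factors, and the 3 genes with the highest r to Pparg and Cebpa. A gene that this rule names is not reported here. The factors and lists were chosen with earlier results of these data known. Each group spans 3 slides, and slides and replicate numbers were tried as blocks. Of same-numbered mice, 5 of 16 pairs deviated together (r over 0.1, range -0.586 to 0.56). Differently numbered pairs were not summarized beside them, so this count cannot exclude a pairing. The fit used for the results did not pair mice by number. Other alternatives were the processed signal, normexp on the mean signal, median centring, other filters, marked spots kept, 2 groups per fit, array weights, a robust intensity trend, averaged probes, and each array left out.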

Additional observations from a re-analysis of the deposited data

Results flagged for a closer look

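Among 42 sets of values (a probe in a group of mice), 4 held a mouse set far from its group, where chance gives about 1 in 20. Ref mouse 5 had a log2 intensity of 15.17 on the brighter Pparg probe, against 14.66 in the nearest Ref mouse, and 7.31 on the dimmer Pparg probe, against 6.48. Ref mouse 7 had 14.85 on the brighter Rxra probe, against 14.51 in the nearest Ref mouse. HFoleic mouse 1 had 13.25 for Cebpa, against 12.81 in the nearest HFoleic mouse.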

How the results depend on the processing

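Under 13 other settings, Cebpd (log2 fold change -1.55 to -1.33) and Ebf2 (-0.84 to -0.77) were called in HFoleic vs Ref in all 13, Ppard (-0.40 to -0.32) in 12, and the dimmer Rxra probe in all 12 that apply. Of 1374 values of the factors, 1344 kept direction and side of the threshold and 1 was no longer called. A further 15 kept their sign and were newly called, and 14 changed sign. All 14 lay in changes not called in the fit used for the results above. Only Rxra in HFoleic vs Ref with averaged probes (-0.32, adjusted p = 0.0301) passed the threshold among them. With the replicate number as a block, 2 factors were called in HFoleic vs Ref, Ppard being lost (adjusted p = 0.0532), and 0 in each of the other comparisons. That fit called 21% of all genes in HFoleic vs Ref, 0.0664% in HFepa vs Ref and 0% in HFepa vs HFoleic. Array weights gave 5 factors in HFoleic vs Ref, adding Cebpa (-0.31, adjusted p = 0.0307) and Zfp423 (0.32, adjusted p = 0.0299), beside 42% of all genes. They gave 2 in HFepa vs HFoleic, Cebpd (0.92, adjusted p = 0.0278) and Ebf2 (0.43, adjusted p = 0.0293), beside 12% of all genes. Leaving out 1 mouse gave 0 to 1 factors in HFepa vs Ref and 0 to 2 in HFepa vs HFoleic. The share of all genes called in those fits ran from 0.397% to 7.01% and from 0% to 7.69%. With slide as a block, 11 of the 139 list genes were called in HFepa vs HFoleic in place of 0, beside 3.14% of all genes. With the processed signal or median centring, 1 was called in HFepa vs Ref in place of 2, beside 1.76% and 1.64% of all genes. The cause was not tested.

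Sign changed for Cebpb in HFepa vs HFoleic under median centring (-0.0024), for the dimmer Pparg probe in HFepa vs Ref under array weights (0.01), and for Rxra with averaged probes in HFepa vs Ref (-0.10) and HFoleic vs Ref (-0.32). Leaving out 1 mouse turned the sign in these ranges: Cebpb in HFepa vs HFoleic from -0.02 to 0.11, Klf15 from -0.001 to 0.16 in HFepa vs HFoleic and from -0.20 to 0.0056 in HFepa vs Ref. In HFepa vs Ref, Ppara ran from -0.05 to 0.17 and its dimmer probe from -0.06 to 0.15, and Pparg ran from -0.12 to 0.02 and its dimmer probe from -0.16 to 0.10. The number of arrays limits what could be called.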
